A study of Mus musculus with 6 samples.

Results

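Lipid droplets are stores of triglyceride and sterol ester that cells wrap in a coat of perilipins, and the 10 genes described here encode that coat and the enzymes and inhibitors that set how much triglyceride is stored. The coat genes are Plin2, Plin3, Plin4 and Plin5. Hilpda and G0s2 encode small inhibitors of adipose triglyceride lipase, the enzyme of Pnpla2 that starts the breakdown of triglyceride, and Lipe encodes hormone-sensitive lipase, which acts on the diglyceride that follows. Dgat1 and Dgat2 encode the acyltransferases that complete triglyceride. In nervous tissue, droplets are known from glia and macrophages that have taken up or made more lipid than they burn or export. The members were taken by gene symbol, and all 10 were found among 35850 genes in the table.

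The series asks how an obesogenic diet affects gene expression in the optic nerve of mice that form optic glioma. The obesogenic group was fed an AIN-76A diet with sucrose that drew 58% of energy from fat, and the control group was fed PicoLab 5053. The title of the series calls the exposure maternal. Each diet had 3 libraries of poly(A) RNA from optic nerves of mice 6 weeks old. Mice of both diets had the same genotype, GFAP-Cre with 1 floxed and 1 R681X allele of Nf1, so no group was free of the Nf1 lesion. The GFAP promoter directs Cre to the glial lineage. Any cell in which Cre was never active, in itself or in its precursors, keeps the floxed allele. The labels do not say whether the libraries came from separate animals or litters, so the spread behind each p-value may be technical.

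Levels are given in TPM, a unit that scales reads by transcript length and by the total of the library, so that genes can be compared. A gene's level is the sum over its listed transcripts, and this sum was not equally complete for all members. Set against the GENCODE M21 annotation, every protein-coding transcript was listed for 5 members, Plin3, Plin4, Hilpda, G0s2 and Dgat2. For the other 5, at least 1 annotated protein-coding transcript was not analysed here: Plin2-201, Plin5-201, Pnpla2-202, Dgat1-201, and both Lipe-201 and Lipe-202. For Dgat1 this leaves 0 protein-coding transcripts, and its level is the sum of 11 noncoding and retained-intron forms. Levels of these 5 genes, and their order relative to other genes, therefore describe the listed transcripts only.

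The libraries carried the marks of the labelled tissue. Marker genes of myelinating oligodendrocytes summed to between 27187 and 55521 TPM in obesogenic and between 62185 and 70217 TPM in control libraries, and astrocyte markers to between 3049.95 and 7473 against between 6356 and 8101 TPM. Of 10 marker lists, myelinating oligodendrocyte, meningeal (1126 to 1359 against 2771 to 3902 TPM) and neutrophil markers (2.99 to 30.2 against 34.9 to 64.9 TPM) gave sums below the whole control range in each obesogenic library, and neuronal markers gave sums above it (170.3 to 1809.9 against 93.7 to 163 TPM). Endothelial markers overlapped, at 197 to 281 against 255 to 529 TPM. Obesogenic library 2 stood apart: immunoglobulin transcripts took 20.6% of its listed TPM, against at most 0.0439% in any other library, and lymphocyte and plasma cell markers summed to 75939.9 TPM there. Its microglia and macrophage markers summed to 4583 TPM, against 912 to 1002 TPM in the other obesogenic and 1018 to 1484 TPM in the control libraries. Markers of fat and muscle, tissues that also express these genes, were measured too. Lep and Cidec were listed at 0 in every library, and Adipoq reached 0.396 TPM in control library 3 and was listed at 0 elsewhere. Fabp4 was at 8.258 TPM in control library 3, against at most 1.90 TPM in any other library, and Cfd was at 1.88 TPM there and at 0 in every obesogenic library. The muscle list summed to 13.3 to 31.8 TPM in obesogenic and 21.2 to 86.0 TPM in control libraries. The adipocyte list of 14 genes summed to 42.9 to 114 against 55.9 to 157 TPM, most of it Thrsp, a lipogenic gene that is not particular to fat. In bulk RNA, fewer cells of a type and less RNA per cell cannot be told apart, and this holds for every value given here.

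**Figure D1:**
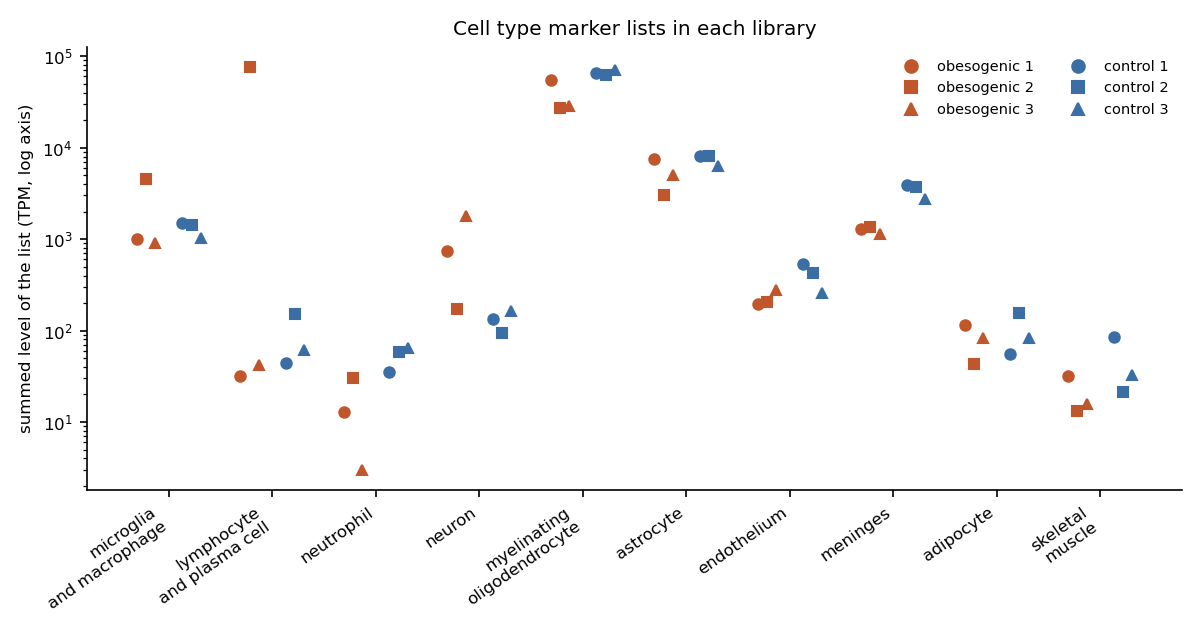
Summed TPM (log axis) of 10 cell type marker lists in each obesogenic (orange, left) and control (blue, right) library, with 1 symbol per library number. Obesogenic library 2 (orange square) reaches 75939.9 TPM for lymphocyte and plasma cell markers and 4583 TPM for microglia and macrophage markers, and meningeal markers are at 1126 to 1359 TPM in obesogenic libraries, below the 2771 to 3902 TPM of the control libraries.

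No member passed the test for a diet difference. Of the 10, Plin5 was listed at 0 in every library and 9 passed the filter for testing, a level of 1 TPM or more in 3 or more libraries, and were tested with limma on log2(TPM + 1). Over all 14364 genes tested, 0.00696% (1 gene, not a member) passed at an adjusted p under 0.05. Leaving out 1 library at a time, that count was 914 without obesogenic library 2, 1 without control library 2 and 0 without any other. It was 2064 under array weights, which gave obesogenic libraries 1, 2 and 3 weights of 4.69, 0.185 and 0.453. At an unadjusted p under 0.05 there was 1 member of 9, Plin2, which was higher, against 11.0% of all genes in either direction and 5.97% among the higher ones. Libraries of the diets did not overlap for 4 of the 9 members, against 16.3% of all genes tested: Plin2 and Pnpla2 were higher (8.88% of all genes) and G0s2 and Plin4 lower (7.45%). The median log2 change over the 9 was -0.14, beside 0.08 over all genes, and 6 of 9 had a lower obesogenic mean log2 value, against 42.3% of all genes. The log2 change of 6 of the 9 lay outside the range from the 25th to the 75th percentile of all genes, on either side, and only that of Plin2 lay outside the range from the 5th to the 95th.

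**Figure D2:**
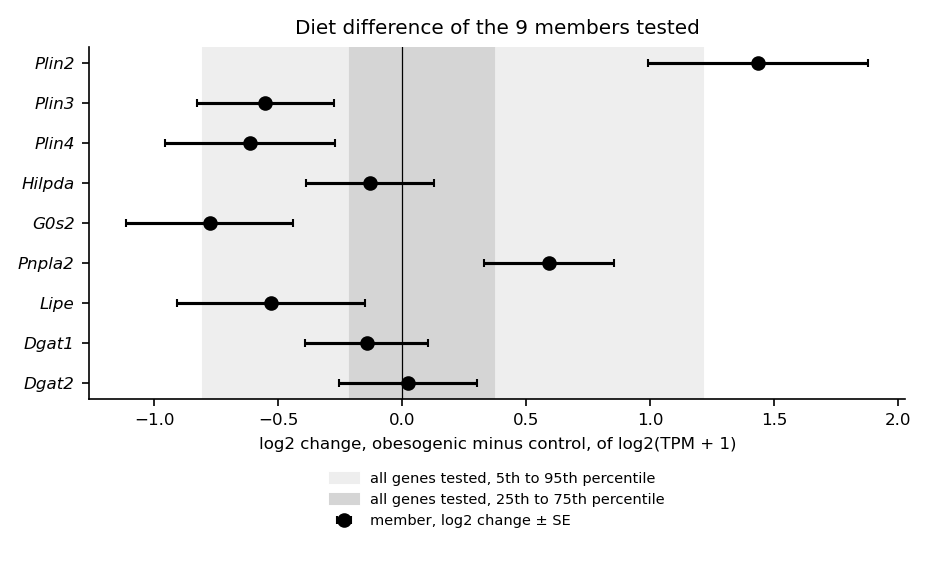
Log2 change (obesogenic minus control, of log2(TPM + 1)) of the 9 members tested, as points with SE bars from limma, over grey bands for the spread of all 14364 genes. Plin2 (1.44) and Pnpla2 (0.59) lie to the right, G0s2 (-0.78), Plin4 (-0.61), Plin3 (-0.55) and Lipe (-0.53) to the left, and Hilpda, Dgat1 and Dgat2 near 0.

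The promoters of the 4 members whose libraries did not overlap are shown because hypoxia and PPAR signalling are known to act on several genes of this group. Each is the stretch of 250 bases before the start site in RefSeq (build GRCm38.p6), read on the gene's strand; RefSeq promoters matched 8 of the 10 members. Capitals mark the hypoxia core ACGTG or GCGTG and the nuclear receptor core AGGTCA, each searched on both strands.
Plin2, chr4:86670060-86670309, minus strand: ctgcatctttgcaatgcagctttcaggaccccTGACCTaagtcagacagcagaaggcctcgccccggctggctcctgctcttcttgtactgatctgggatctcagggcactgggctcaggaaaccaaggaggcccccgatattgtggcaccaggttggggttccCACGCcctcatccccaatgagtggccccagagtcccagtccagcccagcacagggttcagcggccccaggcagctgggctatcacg
Pnpla2, chr7:141454938-141455187, plus strand: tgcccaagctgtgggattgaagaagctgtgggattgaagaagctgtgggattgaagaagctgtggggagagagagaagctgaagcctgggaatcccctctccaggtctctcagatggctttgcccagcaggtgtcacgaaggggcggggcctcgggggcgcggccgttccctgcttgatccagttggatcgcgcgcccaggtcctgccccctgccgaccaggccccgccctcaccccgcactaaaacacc
G0s2, chr1:193273189-193273438, minus strand: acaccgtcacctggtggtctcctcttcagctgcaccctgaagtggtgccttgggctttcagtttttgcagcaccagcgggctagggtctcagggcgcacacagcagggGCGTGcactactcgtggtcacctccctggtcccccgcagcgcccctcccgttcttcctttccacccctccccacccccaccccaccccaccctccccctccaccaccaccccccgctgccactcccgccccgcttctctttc
Plin4, chr17:56109783-56110032, minus strand: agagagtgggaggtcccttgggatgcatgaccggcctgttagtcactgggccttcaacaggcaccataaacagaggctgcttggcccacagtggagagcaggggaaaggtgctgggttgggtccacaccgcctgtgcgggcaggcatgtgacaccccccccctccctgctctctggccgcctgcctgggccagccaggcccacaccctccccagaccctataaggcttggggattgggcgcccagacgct
Plin2 held 1 hypoxia core, as CACGC at -86, and 1 nuclear receptor core, as TGACCT at -218, where positions give the first base relative to the start site. G0s2 held 1 hypoxia core at -142, and neither motif lay in the windows of Pnpla2 and Plin4. Among the members not shown, Hilpda and Lipe held 3 hypoxia core matches each, at a single start site. Plin5 held 1 hypoxia core before each of its start sites and 1 nuclear receptor core, and Plin3 held neither motif. Among 32851 promoters of this length, 38.6% held a hypoxia core and 14.0% a nuclear receptor core, so a single match is common, and a window without one says nothing about the factor.

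Plin2 encodes adipophilin, the coat protein of droplets in most cells that are not adipocytes. Its listed transcripts summed to 13.4, 34.1 and 11.6 TPM in obesogenic libraries 1, 2 and 3, against 4.04, 7.26 and 6.72 TPM in control libraries 1, 2 and 3. Every obesogenic library was above every control library, and obesogenic library 2 was highest. The log2 change was 1.44 (SE 0.44, limma adjusted p = 0.343). Without obesogenic library 2, the library with the immune transcripts, it was 0.98 (SE 0.31, adjusted p = 0.122). Microglia and macrophage markers were at 4583 TPM in that library. The sum of the neuronal list, like Plin2 and Pnpla2, was above every control library in all 3 obesogenic libraries. In obesogenic library 2 the margin was narrow, at 170.3 TPM against 163 TPM in control library 3. There, some neuronal markers were above every control library and others were not. The part of these cells in the Plin2 and Pnpla2 values was not tested.

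On the mean, most of the obesogenic excess in this sum came from 1 transcript. Plin2-206, a protein-coding transcript, was at 6.36, 17.3 and 3.88 TPM in obesogenic libraries, against 2.62 TPM in control library 2 and 0 in control libraries 1 and 3. The libraries did not overlap, but a control level listed at 0 allows no fold, and the log2 change of 2.50 (SE 0.70, adjusted p = 0.382) was 4.67 with a pseudocount of 0.1. Plin2-208, a processed transcript without a coding frame, was at 3.31, 11.2 and 7.41 TPM in obesogenic and 1.89, 3.87 and 5.96 TPM in control libraries, which overlapped (log2 change 0.73, SE 0.51, adjusted p = 0.785). With protein-coding transcripts alone the log2 change of Plin2 was 2.57 (adjusted p = 0.285), and with its most abundant listed transcript alone 0.73 (adjusted p = 0.685). Under array weights, which gave obesogenic library 1 a weight of 4.69 and library 2 a weight of 0.185, Plin2 passed at 1.10 (adjusted p = 0.03), as did 2064 genes in all.

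Plin3 encodes TIP47, a coat protein that is soluble in the cytosol until it binds young droplets, and it was the most abundant member in both diets. Its level was 139.9, 78.2 and 74.0 TPM in obesogenic libraries, against 149.8, 149.6 and 115 TPM in control libraries. Obesogenic libraries 2 and 3 were below every control library, while library 1 lay among the controls. The log2 change was -0.55 (SE 0.28, adjusted p = 0.518). Without obesogenic library 1 it was -0.84 (adjusted p = 0.305), and under array weights, where that library weighs most, -0.10 (adjusted p = 0.765). Library 1 was also the obesogenic library nearest the controls in myelin markers, at 55521 TPM, against 27187 TPM in library 2 and 28411 TPM in library 3; the part of oligodendrocyte RNA in the Plin3 difference was not tested.

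Both coding transcripts of Plin3 shared the pattern. Plin3-201 was at 80.9, 58.5 and 47.8 TPM in obesogenic and 91.3, 98.0 and 70.9 TPM in control libraries. Plin3-202 was at 59.0, 19.7 and 26.2 TPM in obesogenic and 58.5, 51.6 and 44.2 TPM in control libraries, and it made up between 25.1% and 42.2% of the gene's level in obesogenic and between 34.5% and 39.1% in control libraries. Neither transcript passed (adjusted p = 0.685 for Plin3-201 and 0.725 for Plin3-202).

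Plin4, a coat protein best known from fat and muscle, was at 6.00, 5.90 and 4.32 TPM in obesogenic libraries, against 7.47, 6.54 and 13.5 TPM in control libraries. All obesogenic libraries were below the controls, by a narrow margin from control library 2, and control library 3 was highest. The log2 change was -0.61 (SE 0.34, adjusted p = 0.563) and -0.33 without control library 3 (adjusted p = 0.875). The adipocyte markers Fabp4 (8.258 TPM), Car3 (7.77 TPM), Cfd (1.88 TPM) and Adipoq (0.396 TPM) were also highest in control library 3. Thrsp, Slc36a2, Pparg, Acvr1c, Adrb3, Tshr, Plin1 and Retn of the same list were highest in other libraries. The list summed to 83.4 TPM in control library 3, against 157 TPM in control library 2. The part of fat in the Plin4 level of control library 3 was not tested. After rescaling each library to the same total without immunoglobulin genes, the diets overlapped, at 7.54, 8.92 and 5.48 TPM in obesogenic and 9.33, 8.20 and 16.7 TPM in control libraries. Plin4-203 was its most abundant transcript on average, at 4.30, 2.93 and 2.47 TPM in obesogenic and 4.55, 4.32 and 7.89 TPM in control libraries. Plin4-201 was listed at 0 in obesogenic library 2, and Plin4-202 was listed above 0 only there, at 2.97 TPM. The single listed transcript of Plin5, the perilipin of oxidative tissue that links droplets to mitochondria, was at 0 in every library.

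**Figure D3:**
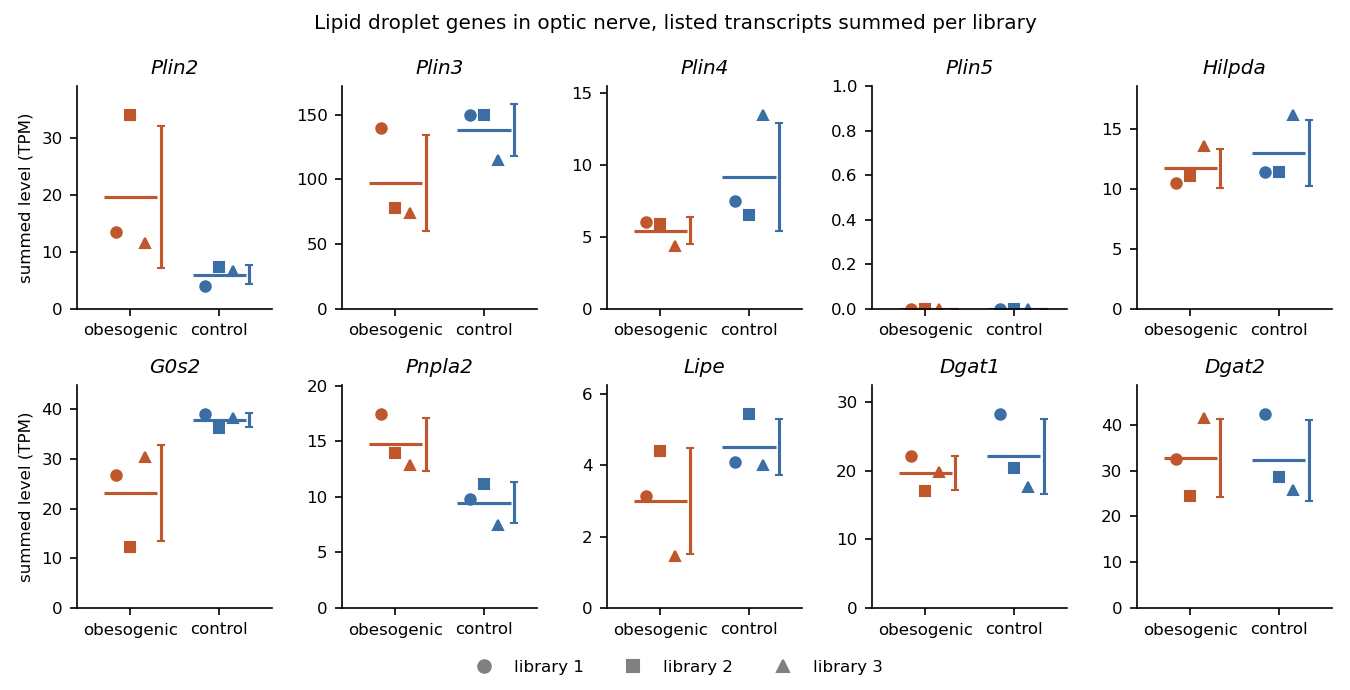
Summed TPM of the listed transcripts of each of the 10 members, with obesogenic libraries (orange, left) and control libraries (blue, right), 1 symbol per library, a line at the mean and a bar of 1 SD (n = 3). Plin2 and Pnpla2 lie above and G0s2 and Plin4 below their controls in every obesogenic library, with obesogenic library 2 (square) the most distant for Plin2 and G0s2.

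Among the lipase inhibitors, G0s2 was lower in every obesogenic library. It was at 26.8, 12.3 and 30.4 TPM in obesogenic libraries, against 39.0, 36.2 and 38.2 TPM in control libraries. The SD was 9.62 TPM over the obesogenic libraries, with library 2 lowest, and 1.43 TPM over the control libraries. The log2 change was -0.78 (SE 0.34, adjusted p = 0.465). It was -0.39 without obesogenic library 2 (SE 0.16, adjusted p = 0.212). Rescaled without immunoglobulin genes, the levels were 33.7, 18.5 and 38.6 TPM in obesogenic and 48.7, 45.4 and 47.3 TPM in control libraries, still without overlap. Before this rescaling, the sums of the myelin, meningeal and neutrophil marker lists were likewise lower in every obesogenic library. These sums were not rescaled, and immunoglobulin transcripts took 20.6% of the listed TPM of obesogenic library 2. The neutrophil sum in that library was 30.2 TPM, near the 34.9 TPM of control library 1. The part of these cells in the G0s2 and Plin4 differences was not tested.

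Hilpda, induced by hypoxia and by fatty acids, was at 10.5, 11.1 and 13.6 TPM in obesogenic libraries, against 11.5, 11.4 and 16.2 TPM in control libraries. The ranges overlapped, the log2 change was -0.13 (SE 0.26, adjusted p = 0.896), and its sign turned without control library 3 (0.03). Hilpda-201 carried most of it, at 10.5, 6.73 and 10.9 TPM in obesogenic and 11.5, 11.4 and 10.02 TPM in control libraries. Hilpda-202 was listed at 4.39 and 2.68 TPM in obesogenic libraries 2 and 3 and at 6.18 TPM in control library 3, and at 0 in the rest.

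Of the lipases, Pnpla2 had listed transcripts that summed to 17.4, 13.9 and 12.8 TPM in obesogenic libraries, against 9.80, 11.2 and 7.48 TPM in control libraries. Every obesogenic library was above every control library, and library 1 was highest, so the order among the obesogenic libraries was not that of Plin2. The log2 change was 0.59 (SE 0.26, adjusted p = 0.475), and it was 0.62 without obesogenic library 2. Under array weights, with obesogenic library 1 weighted 4.69, Pnpla2 passed (0.76, adjusted p = 0.04), as did 2064 genes in all. Rescaling without immunoglobulin genes kept the diets apart, at 21.9, 21.1 and 16.3 TPM in obesogenic and 12.2, 14.0 and 9.27 TPM in control libraries.

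Pnpla2-206, annotated as protein coding, held this difference. It was at 11.5, 6.41 and 7.10 TPM in obesogenic libraries, against 2.92 TPM in control library 1 and 0 in control libraries 2 and 3. This made 65.6%, 46.0% and 55.3% of the gene's listed level in obesogenic libraries and 29.8% in control library 1. Its log2 change was 2.53 (SE 0.61, unadjusted p = 0.00429, adjusted p = 0.318), a value that depends on the pseudocount, since it was 4.71 with a pseudocount of 0.1. The other 4 listed transcripts overlapped between diets, and Pnpla2-203, also protein coding, was at 1.96, 1.64 and 3.08 TPM in obesogenic and 2.52, 2.03 and 3.36 TPM in control libraries. How these values relate to Pnpla2-202 was not analysed here.

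Lipe was low, at 3.14, 4.40 and 1.45 TPM in obesogenic libraries, against 4.10, 5.42 and 4.02 TPM in control libraries. The ranges overlapped through obesogenic library 2, and library 3 was lowest. The log2 change was -0.53 (SE 0.38, adjusted p = 0.667), and it was -0.21 without obesogenic library 3. Lipe-208, a protein-coding form, did not overlap, at 0.978, 1.22 and 0.728 TPM in obesogenic and 2.03, 2.83 and 1.53 TPM in control libraries (log2 change -0.65, SE 0.36, adjusted p = 0.702).

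**Figure D4:**
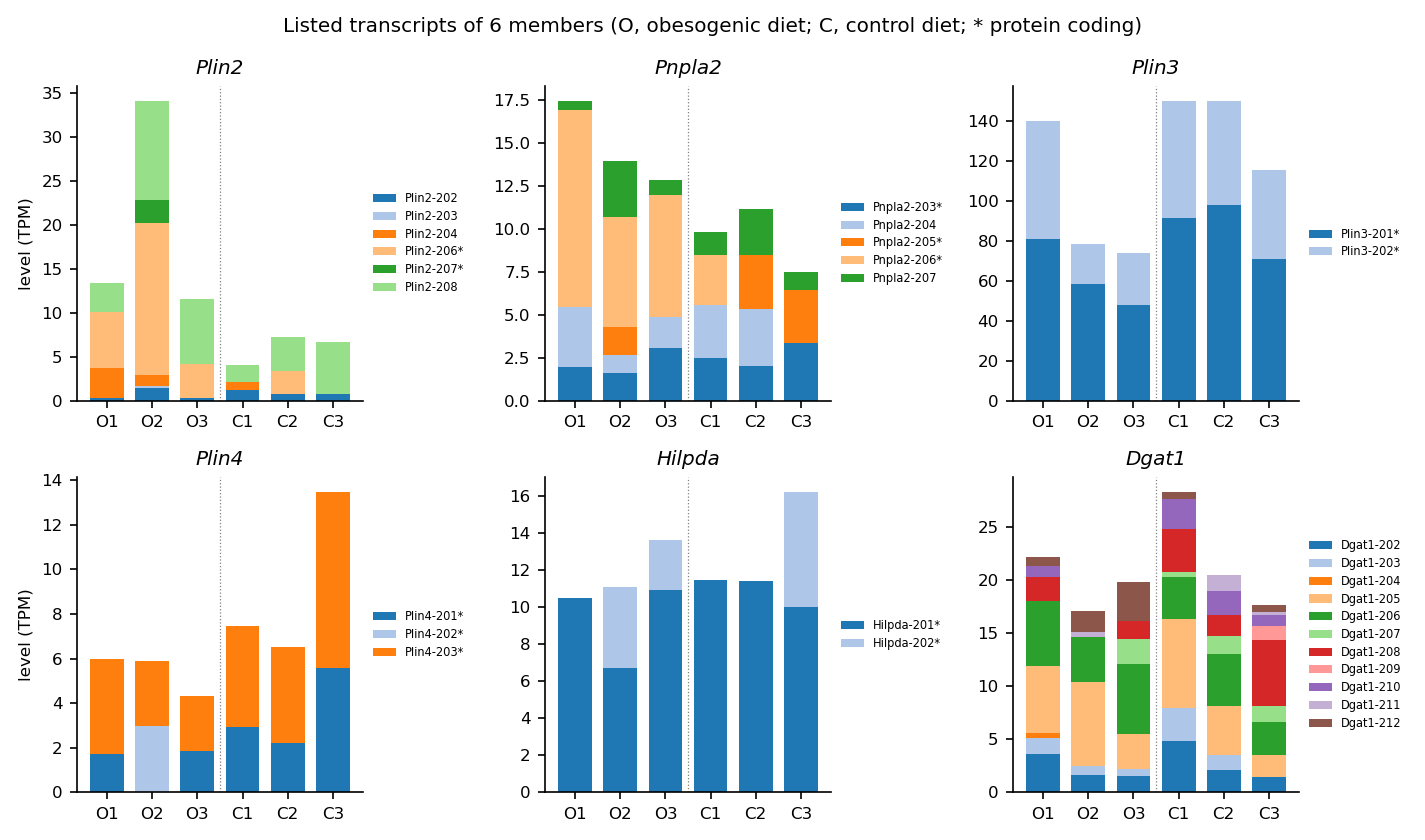
Stacked TPM of the listed transcripts of 6 members in obesogenic (O1 to O3, left) and control (C1 to C3, right) libraries; an asterisk marks a protein-coding transcript. On the mean, Pnpla2-206 and Plin2-206 make up most of the obesogenic excess of their genes, though Plin2-208 is the larger Plin2 transcript in O3. Both transcripts of Plin3 are lower in O2 and O3.

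The final acyltransferases of triglyceride synthesis, like Hilpda, had log2 changes near 0. Dgat2, with its coding transcripts listed, was at 32.6, 24.4 and 41.4 TPM in obesogenic libraries, against 42.3, 28.6 and 25.8 TPM in control libraries. Its log2 change was 0.02 (SE 0.28, adjusted p = 0.984), with a sign that turned under scaling by the median ratio (-0.03) and without each of 3 libraries. Dgat2-201 made up at least 93.8% of it in every library. Dgat1, through noncoding and retained-intron forms alone, was at 22.2, 17.1 and 19.8 TPM in obesogenic libraries, against 28.3, 20.5 and 17.7 TPM in control libraries (log2 change -0.14, SE 0.25, adjusted p = 0.881). Its sign turned without control library 1 (0.04) and with its most abundant transcript, the retained intron form Dgat1-205 (0.26). Among its forms, Dgat1-210 was at 1.04, 0 and 0 TPM in obesogenic and 2.88, 2.30 and 0.983 TPM in control libraries (log2 change -1.21, unadjusted p = 0.0334, adjusted p = 0.552), or -3.14 with a pseudocount of 0.1. An SE near 0.3 leaves room for a change of either sign, so equal levels are not shown for either gene.

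Across all 44 listed transcripts of the members, 24 passed the filter, 20 did not, and 5 of these were listed at 0 in every library. None of the 24 passed in the transcript fit, where 0.00565% of 35408 transcripts did. At an unadjusted p under 0.05 there were 3, Plin2-206 and Pnpla2-206 higher and Dgat1-210 lower, against 8.46% of all transcripts (4.63% higher, 3.84% lower). Libraries did not overlap for 6 of the 24, against 13.5% of all transcripts: Plin2-206 and Pnpla2-206 were higher (7.43% of all), and G0s2-201, Plin4-201, Plin4-203 and Lipe-208 lower (6.11%). The mean log2 value was lower in obesogenic libraries for 16 of the 24, against 44.7% of all transcripts. Of those that did not pass the filter, the retained intron form Dgat1-212 was at 0.817, 1.97 and 3.67 TPM in obesogenic and 0.584, 0 and 0.667 TPM in control libraries, which did not overlap.

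Ordered by mean level, Plin3 stood apart at the top of the members in both diets, at 97.4 ± 36.9 TPM in obesogenic and 138 ± 20.0 TPM in control libraries (SD, n = 3). From rank 2 to rank 7 of the obesogenic order, Dgat2, G0s2, Plin2, Dgat1, Pnpla2 and Hilpda, each neighbour overlapped the next, so their order is not fixed. The control order was G0s2, Dgat2 and Dgat1, which overlapped, then Hilpda, apart from its neighbours on both sides, then Pnpla2, Plin4, Plin2 and Lipe, each overlapping the next. Plin4 and Lipe overlapped at the foot of the obesogenic order. Plin2 was at rank 4 with a mean of 19.7 ± 12.5 TPM in obesogenic and at rank 8 with 6.01 ± 1.73 TPM in control libraries.

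The other genes of droplet biology gave no call either. Of 74 genes tested in 5 related lists, 0 passed, against 0.00696% of all genes. Their log2 change was above 0 for 27 and below 0 for 47, with a median of -0.10, and at an unadjusted p under 0.05 there were 3 higher and 5 lower. Over all genes, 42.3% had a lower obesogenic mean, and 5.97% were higher and 5.0% lower at that p, so the share called in these lists was near that of all genes. Among other droplet proteins, 6 of 11 were higher and 5 lower, with a median log2 change of 0.15. Vps13c, a lipid transfer protein at contacts between organelles and droplets, did not overlap, at 5.21, 4.57 and 5.77 TPM in obesogenic and 2.18, 3.46 and 2.09 TPM in control libraries (log2 change 0.81, SE 0.31, adjusted p = 0.423). Cidea, a droplet fusion protein known from brown fat, was at 18.5, 6.09 and 19.4 TPM in obesogenic and 26.2, 14.4 and 19.5 TPM in control libraries. Tmem159, which encodes the seipin partner LDAF1, was at 15.8, 0.690 and 12.02 TPM in obesogenic and 20.3, 11.1 and 13.2 TPM in control libraries. Aup1 and Faf2, genes of proteins that sit on the endoplasmic reticulum and on droplets, had log2 changes of 0.23 and 0.26.

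Among the other genes listed for triglyceride and related lipid synthesis, 6 of 15 were higher and 9 lower, with a median of -0.02. Lpin2, a phosphatidate phosphatase that makes the diglyceride used by both DGAT enzymes, was at 24.9, 31.9 and 32.5 TPM in obesogenic and 13.8, 18.1 and 15.1 TPM in control libraries. All obesogenic libraries lay above the controls, with a log2 change of 0.88 (SE 0.22, unadjusted p = 0.00491, adjusted p = 0.267). Acsl4, which activates arachidonic acid, was at 16.2, 14.1 and 21.4 TPM in obesogenic and 7.35, 8.22 and 11.1 TPM in control libraries (log2 change 0.88, SE 0.28, adjusted p = 0.351). Lpin3, another lipin, was at 5.43, 0 and 0.770 TPM in obesogenic and 8.66, 13.8 and 3.21 TPM in control libraries and overlapped. Agpat1 and Gpam, acyltransferases of earlier steps, had log2 changes of -0.59 and 0.40.

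In lipolysis, 6 of 12 genes were higher and 6 lower, with a median of 0.01. Abhd5, the coactivator of the lipase that Pnpla2 encodes, was at 39.2, 21.2 and 28.4 TPM in obesogenic and 44.4, 39.0 and 44.5 TPM in control libraries. Only obesogenic library 1 reached the control range, by a small margin (log2 change -0.55, SE 0.25, adjusted p = 0.484). Mgll, the monoglyceride lipase, was at 108.7, 59.3 and 60.4 TPM in obesogenic and 103, 104 and 93.6 TPM in control libraries, so that library 1 lay above the controls and the others below. Ddhd2, a triglyceride hydrolase of the brain, had a log2 change of 0.33, Lipa, the lysosomal acid lipase, of -0.52 and Ces1d, a carboxylesterase, of 1.31 with an SE of 1.28.

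Of the hypoxia targets, to which Hilpda belongs, 9 of 20 gene identifiers were higher and 11 lower, with a median of -0.08; Aldoa had 2 identifiers. Adm, adrenomedullin, was at 11.98, 15.0 and 10.4 TPM in obesogenic and 24.5, 24.2 and 23.7 TPM in control libraries, which did not overlap (log2 change -0.92, SE 0.22, unadjusted p = 0.00423, adjusted p = 0.265). Slc2a1, the glucose transporter of glia and endothelium, Egln3, a prolyl hydroxylase of the oxygen sensing pathway, and Ndrg1, a stress gene, had log2 changes of -0.56, -0.72 and -0.79. For Aldoa, a glycolytic enzyme, the identifier of smaller p was at 171, 162 and 243 TPM in obesogenic and 146, 153 and 129 TPM in control libraries. Both Aldoa identifiers were higher without overlap, with log2 changes of 0.405 and 0.625 (adjusted p = 0.525 and 0.531). In this list, 2 identifiers were higher and 1 lower without overlap, against 8.88% and 7.45% of all genes. Endothelial markers were at 197 to 281 TPM in obesogenic and 255 to 529 TPM in control libraries, and their part in the Adm and Slc2a1 values was not tested.

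Of the PPAR targets, a group that includes perilipin genes in liver and muscle, 16 of 17 were lower and 1 higher, with a median of -0.19, against 42.3% lower over all genes. Libraries did not overlap for 2 of the 17, both lower, against 7.45% of all genes. Vnn1, a pantetheinase and one of these, was at 2.54, 1.57 and 1.04 TPM in obesogenic and 4.85, 3.73 and 3.13 TPM in control libraries (log2 change -0.87, SE 0.35, adjusted p = 0.437). Angptl4, a lipoprotein lipase inhibitor, had a log2 change of -0.89, Acot1, an acyl-CoA thioesterase, of -0.44 and Pdk4, a kinase that restrains pyruvate oxidation, of -0.42.

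**Figure D5:**
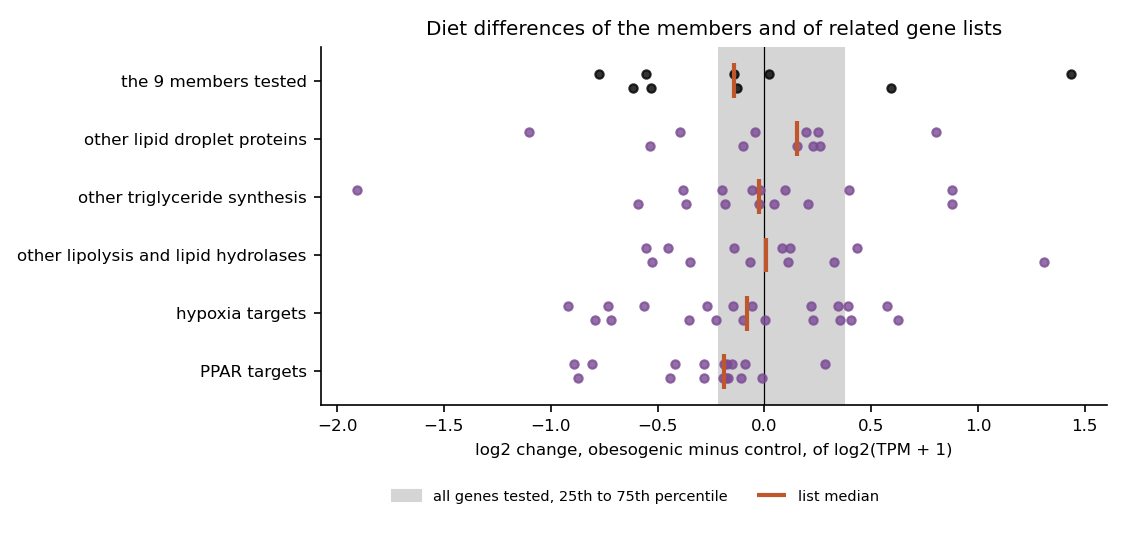
Log2 change (obesogenic minus control) of each gene tested among the members and in 5 related lists, 1 point per gene, with the list median as an orange line over a grey band from the 25th to the 75th percentile of all genes. The list medians run from -0.19 for PPAR targets to 0.15 for other droplet proteins, and the members span from -0.78 (G0s2) to 1.44 (Plin2).

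The genes most like each of 3 members over the 6 libraries were looked up among 10818 tested genes with a mean of at least 5 TPM, by Pearson's r of log2(TPM + 1). With so few libraries, high values of r arise for many genes, and these are given as a description. For Plin2 they were Cmpk2 (r = 0.997), a mitochondrial nucleotide kinase gene that interferon induces, Fbl (0.997), the nucleolar methyltransferase fibrillarin, and Tagap (0.985), a GTPase activator of T cells. Cmpk2 was at 34.9, 75.3 and 29.7 TPM in obesogenic and 13.6, 21.7 and 18.0 TPM in control libraries, with the highest level in obesogenic library 2, as for Plin2. For Plin4 they were Dusp10 (0.988), a MAP kinase phosphatase, Gm40466 (0.981) and Pds5b (0.967), a cohesin regulator, each highest in control library 3. For Hilpda they were Psph (0.958), Gsto1 (0.956) and Gm6061 (0.955), also highest in control library 3.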

How the data were processed

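Per the labels' protocols, poly(A) RNA from optic nerve was isolated with a NucleoSpin RNA Plus XS kit and the 6 libraries were made with a SMART-Seq mRNA kit. The authors deposited 1 table of TPM per transcript and library. The submitters' processing notes list featureCounts 2.0.3, Subread, STAR 2.7.9a and DRAGEN, with no role for any of them. Genome build, annotation and the source of the TPM: not given in the sources used here. Repeated lines of a transcript were counted once (109383 transcripts). Listed values summed to 788456 to 832193 TPM per library, and the remainder was not analysed here. TPM keeps no depth, so counting intervals could not be given. Transcripts were summed to genes. Genes or transcripts with 1 TPM or more in 3 or more libraries were tested on log2(TPM + 1), a scale that understates changes of low genes, as obesogenic minus control. The test was limma 3.58.1 (R 4.3.3), with eBayes and a mean-variance trend. All p-values are two-sided, and adjusted p-values are Benjamini-Hochberg over all features of the fit, at 0.05. An exact permutation test of 3 against 3 cannot go below 0.1, so none was used. Named genes were all members, up to 5 genes of smallest unadjusted p per related list, and 3 most like Plin2, Hilpda and Plin4. One gene that this rule names is not reported here. The members and lists were chosen with earlier results of these data known. Fits were tested on simulated data. Alternatives covered pseudocount, filter, scaling, block, eBayes settings, array weights, transcript choice and each library left out. Tables and figures used pandas 2.3.3 and matplotlib 3.10.9 in Python 3.11.15.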

Additional observations from a re-analysis of the deposited data

How the results depend on the processing

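Of 161 gene values of the 9 tested members under alternatives, 152 kept their direction and side of the threshold, 2 newly passed (array weights, Plin2 at 1.10 and Pnpla2 at 0.76) and 7 turned sign, all of Hilpda, Dgat1 or Dgat2, whose changes lay near 0. Turned values were 0.26 for Dgat1 with its most abundant transcript, -0.027 for Dgat2 under median ratio scaling and, among fits leaving out 1 library each, ranges of -0.23 to 0.027 for Hilpda, -0.28 to 0.039 for Dgat1 and -0.16 to 0.23 for Dgat2. The cause was not tested. Of 384 transcript values, 368 kept direction and call and 16 turned sign: under array weights Dgat1-202 (0.003), with a pseudocount of 0.1 Dgat1-203 (0.44), under median ratio scaling Dgat2-201 (-0.027), and without 1 library Dgat1-202 (-0.45 to 0.19), Dgat1-203 (-0.66 to 0.35), Dgat1-205 (-0.14 to 0.65), Dgat2-201 (-0.17 to 0.23), Hilpda-202 (-0.008 to 1.44), Lipe-207 (-0.72 to 0.009), Pnpla2-204 (-0.51 to 0.54) and Pnpla2-207 (-0.62 to 0.13). Over all genes 1 was called; 2064 were called under array weights, 0 without a filter or with protein-coding transcripts only, and 0 to 914 when 1 library was left out, the 914 without obesogenic library 2. Over all transcripts 2 were called; 1 with a pseudocount of 0.1 or rescaled without immunoglobulin genes, 0 without a filter or with the replicate block, 6 without the mean-variance trend, and 0 to 4 when 1 library was left out. With the sample number as a replicate block, 1 gene was called, and no member. The numbers only name samples: deviations of same-numbered libraries correlated at 0.00787, 0.177 and 0.132, and not every library correlated best with its own number. Dgat1 gave no value with protein-coding transcripts only. TPM carry no depth, and 3 libraries per diet limit what could be called.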
